A study of Mus musculus with 6 samples.

Results

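The genes described here are the matrix metalloproteinases (Mmp), the ADAM, ADAMTS and ADAMTS-like proteins (Adam, Adamts, Adamtsl) and the tissue inhibitors of metalloproteinases (Timp). They were chosen by gene symbol, as every non-control probe on the array whose symbol is 1 of these 5 stems followed by a number, with or without a final a or b. This gave 83 genes, of 35527 gene names on the array, measured by 119 of its 55681 probes. The study asked how the transcriptome of 3T3 cells, an established mouse embryonic fibroblast line, responds when the long non-coding RNA Ntep is inhibited. Cells received either GapmeR Ntep, an antisense oligonucleotide whose DNA core directs RNase H to cut the target RNA, or GapmeR control, each at 50 nM for 48 h. There were 3 independent experiments, each giving 1 array per GapmeR, so that 3 arrays labelled GapmeR Ntep were compared with 3 arrays labelled GapmeR control. All cells came from the same line, and none was left without a GapmeR.

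Matrix metalloproteinases are zinc-dependent enzymes, most of them secreted as inactive precursors, that cut collagens, proteoglycans and other proteins of the extracellular matrix. ADAMs are mostly anchored in the membrane and release the outer part of growth factors, cytokines and receptors from the cell surface, whereas ADAMTS enzymes are secreted and process procollagens and large proteoglycans. ADAMTS-like proteins resemble the non-catalytic part of ADAMTS enzymes and carry no protease domain, and TIMPs block the active site of the enzymes. Fibroblasts are a main source of many of these proteins, and stromelysin and collagenase genes are textbook examples of genes that are switched on by the transcription factor AP-1.

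Between 43.7% and 53.3% of all probes were well above background on the single arrays, and no probe was saturated. The probe for Ntep itself read 472, 91.5 and 226 on the GapmeR Ntep arrays of experiments 1, 2 and 3, against 271, 272 and 361 on the control arrays. It was therefore lower in experiments 2 and 3 and higher in experiment 1, where it went against the label. Directions below are those of the labels, and values without experiment 1 are given for the probes that passed a call rule. Of 12 fibroblast marker genes, 11 were bright enough to test and 9 were well above background on all 6 arrays. The samples are bulk RNA, so fewer cells of a type and less RNA per cell cannot be told apart.

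Testing with limma was limited to probes whose mean reached 50 under at least 1 GapmeR, which left 52 of the 119 probes (42 genes). Of these, 35 reached that mean in both groups, 7 only under GapmeR Ntep and 10 only under GapmeR control. The other 67 probes included 31 at the floor of 20 on every array, and 41 genes had no tested probe. Calls were made at an adjusted p under 0.05 (Benjamini-Hochberg over all 30990 tested probes) and, separately, at a fold change of at least 2 with an unadjusted p under 0.01. At the adjusted p, 3 member probes were higher under GapmeR Ntep and 4 lower, where 2.09% of all tested probes were higher and 3.21% lower. At the fold limit, 4 were higher and 7 lower, against 3.08% and 5.06% of all tested probes. The 3 arrays of one GapmeR lay entirely above or below the 3 of the other for 9 probes that were higher and 16 that were lower, against 17% and 15.1% of all tested probes. The count of lower members at this last comparison stood above the background share, while that of higher members was close to it; probes that reached the limit in one group only are part of both counts.

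The subfamilies were summarised by their medians. The median log2 difference (GapmeR Ntep minus GapmeR control) of the tested probes was 0.13 for the 12 Mmp probes, -0.24 for the 5 Timp, -0.31 for the 17 Adam, -1.31 for the 14 Adamts and -1.28 for the 4 Adamtsl probes. Over all 52 it was -0.28, with 17 probes above 0 and 35 below, and over all tested probes of the array it was 0.06. Scaling each array to its 75th percentile in place of quantile normalization moved the array-wide median to 0.22. The subfamily medians were then 0.28, 0.07, -0.18, -1.18 and -0.86 in the same order, so that of the Timp genes changed sign. After normexp background correction the Adamts median was -0.50. The Mmp median was 0.41 without GapmeR Ntep replicate 1 and -0.02 without GapmeR Ntep replicate 2. In the 3 experiments taken singly, the median of the Adamts probes was -1.57, -0.91 and -1.26, and that of the Mmp probes 0.17, 0.45 and 0.17.

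**Figure D1:**
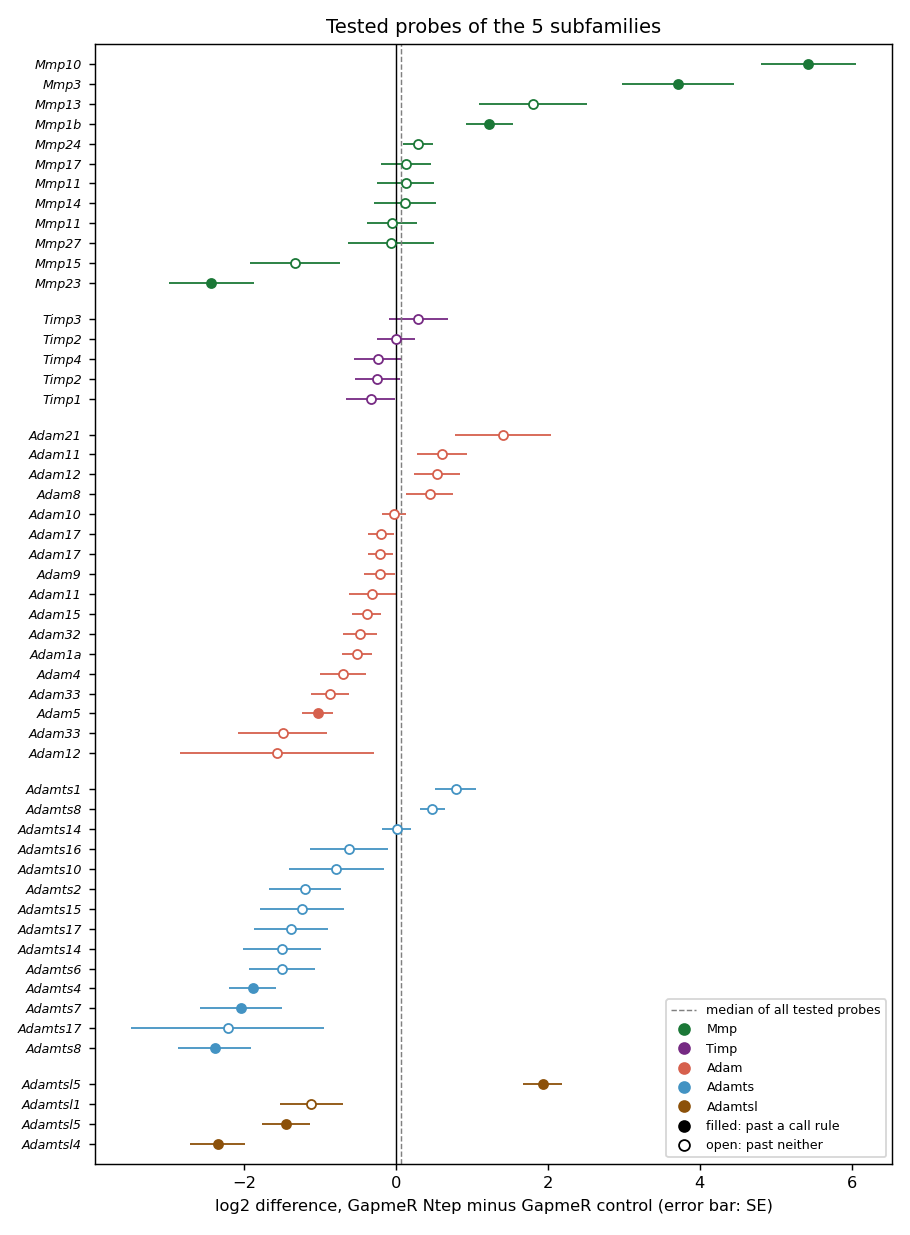
Log2 difference between GapmeR Ntep and GapmeR control for each of the 52 tested probes, 1 row per probe, grouped and coloured by subfamily. Points are estimates, error bars are SE, filled points passed a call rule and the dashed line is the array-wide median; the Mmp probes spread from -2.43 to 5.43, the Timp probes stayed between -0.33 and 0.29, and the Adamts probes ran from -2.39 to 0.78.

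The 2 highest differences among the tested members were those of stromelysins, in the Mmp gene cluster of chromosome 9. Mmp10, or stromelysin-2, which cuts proteoglycans and activates other MMP precursors, read 2865, 735 and 539 on the GapmeR Ntep arrays and 24.8, 20 and 28.8 on the control arrays. All 3 GapmeR Ntep arrays were thus far above every control array, and the array of experiment 1 was the highest. The control signals were not well above background, so the difference is a bound: Mmp10 was at least 20.8-fold higher. The fitted log2 difference was 5.43 (SE 0.63, adjusted p = 0.0234), and without experiment 1 it was 4.71 (adjusted p = 0.0461). The probe lies at chr9:7510011-7510070 of mm9, on the plus strand.

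Mmp3, or stromelysin-1, a protease of broad specificity, read 983, 133 and 237 under GapmeR Ntep and 34.7, 20 and 20 under GapmeR control (probe at chr9:7455751-7455810). The groups did not overlap, and again only the GapmeR Ntep arrays were well above background, which made Mmp3 at least 6.28-fold higher. Its log2 difference was 3.71 (SE 0.74, adjusted p = 0.0475; 0.0508 with 75th percentile scaling and 0.105 after normexp background correction). Without experiment 1 it was 3.15 (adjusted p = 0.0482).

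Mmp13, the main collagenase of mouse tissues, read 710.3, 156 and 110.2 against 91.3, 58.0 and 54.6 (chr9:7282762-7282821). Each GapmeR Ntep array exceeded all control arrays, but the spread among the former was wide. The log2 difference of 1.80 (SE 0.71) did not pass (adjusted p = 0.186). Only 1 control array had Mmp13 well above background. Mmp1b, a relative of human collagenase-1, read 56.1, 64.0 and 74.1 against 42.1, 24.7 and 20 (chr9:7367842-7367901, minus strand). It passed the fold limit alone, with a log2 difference of 1.23 (SE 0.31, adjusted p = 0.0762). Only 1 GapmeR Ntep array and no control array had it well above background, so the change is bounded at 1.28-fold or more. Without experiment 1 its log2 difference was 1.63 (adjusted p = 0.0493).

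The remaining members of the cluster gave little signal. On the mm9 positions of the array's annotation, the 12 Mmp probes of chromosome 9 stand for 10 genes within 414939 bases, in the order Mmp13, Mmp12, Mmp1b, Mmp3, Mmp1a, Mmp10, Mmp8, Mmp27, Mmp20 and Mmp7. Tested were 5 genes, and of these Mmp1b, Mmp3, Mmp10 and Mmp27 reached the limit only through the GapmeR Ntep arrays. Mmp27 read 87.3, 55.7 and 20 against 64.6, 36.2 and 47.8, with overlapping groups and a log2 difference of -0.07. Mmp8, the neutrophil collagenase, reached 77.3 on the control array of experiment 1 and lay between 20 and 28.9 on the other 5 arrays. Macrophage elastase (Mmp12), Mmp1a, enamelysin (Mmp20) and matrilysin (Mmp7) read between 20 and 30.2 on all arrays.

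**Figure D2:**
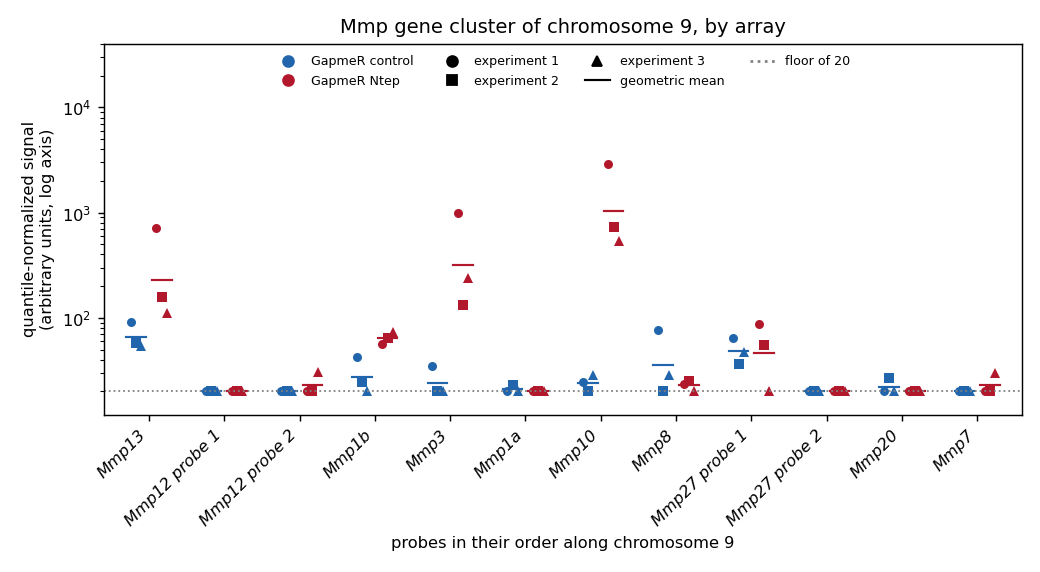
Quantile-normalized signal of the 12 Mmp probes of chromosome 9 in their order along the chromosome (horizontal axis, not to scale), on a log axis with the floor of 20 dotted. Each point is 1 array (blue GapmeR control, red GapmeR Ntep, symbols for the 3 experiments) and lines are geometric means; Mmp10 reached 539 to 2865 under GapmeR Ntep and at most 28.8 under GapmeR control, while most neighbours lay at the floor.

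The promoters of the tested cluster genes are shown because these genes, apart from Mmp27, carry the signal of the cluster. RefSeq promoter windows (GRCm38.p6, from 250 bases before to 50 bases after the annotated start) were given for 52 of the 83 member genes. They were searched on both strands for TGAGTCA, the AP-1 motif, and for TATAAA, the core of the TATA box; the motifs cannot overlap each other. The last 130 bases before each start follow, 5′ to 3′ on the strand of the gene, with both motifs in capitals.
Mmp10, chr9:7502212-7502341, plus strand: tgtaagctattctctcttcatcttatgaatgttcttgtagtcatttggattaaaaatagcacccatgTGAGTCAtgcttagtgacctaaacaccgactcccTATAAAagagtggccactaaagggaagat
Mmp3, chr9:7445692-7445821, plus strand: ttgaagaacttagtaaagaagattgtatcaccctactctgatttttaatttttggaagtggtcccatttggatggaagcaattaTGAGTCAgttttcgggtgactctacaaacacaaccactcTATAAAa
Mmp13, chr9:7272384-7272513, plus strand: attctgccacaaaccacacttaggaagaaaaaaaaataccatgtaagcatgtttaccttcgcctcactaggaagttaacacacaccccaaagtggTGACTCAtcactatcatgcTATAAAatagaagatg
Mmp1b, chr9:7388027-7388156, minus strand: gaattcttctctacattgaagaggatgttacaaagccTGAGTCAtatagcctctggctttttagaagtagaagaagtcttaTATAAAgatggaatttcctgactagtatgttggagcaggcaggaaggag
Mmp27, chr9:7571266-7571395, plus strand: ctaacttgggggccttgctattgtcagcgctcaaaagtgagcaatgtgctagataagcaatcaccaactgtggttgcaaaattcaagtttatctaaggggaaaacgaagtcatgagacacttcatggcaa

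The AP-1 motif began 63 bases before the start in Mmp10, 46 in Mmp3, 35 in Mmp13 (where it reads TGACTCA, the reverse strand) and 93 in Mmp1b, each time upstream of a TATA motif. Mmp27 held neither in its window. Over the whole cluster, 7 of 12 windows (58.3%) held both motifs, those of Mmp12, Mmp1a and Mmp7 among them, whose probes gave almost no signal. Of the 45 windows of the other member genes, 1 (2.22%) held both, as did 0.941% of all 32851 windows given. The AP-1 motif alone was present in 5.20% of all windows and in 17.5% of the 57 windows of members, and TATAAA in 13.6% and 26.3%. A match describes the letters in the window and does not show that a factor binds there.

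**Figure D3:**
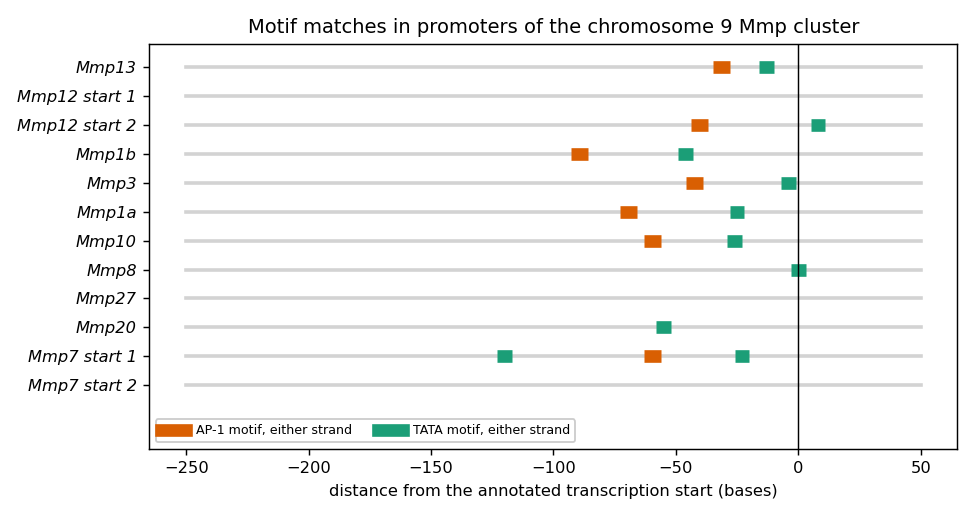
Positions of the AP-1 motif (orange) and the TATA motif (green), on either strand, in the RefSeq promoter windows of the 10 Mmp genes of the chromosome 9 cluster, 1 row per annotated start, against the distance from that start in bases. Grey lines span the 300-base window; 7 rows hold both motifs, with the AP-1 match 35 to 93 bases before the start.

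Markers of macrophages, a cell type that makes several of these proteases, were measured beside this group. Of 12 listed genes, 11 were on the array and 6 were tested. Their summed signal was 43052 to 75451 under GapmeR Ntep and 21135 to 27785 under GapmeR control. Cd68 passed the adjusted p at its brighter probe (log2 difference 1.21, with the experiment as a block adjusted p = 0.0314) but not at the other (0.68, adjusted p = 0.143). Cd14 passed the fold limit alone (1.11, adjusted p = 0.0627, with the block 0.0332). The brightest Csf1r probe differed by 3.19 (adjusted p = 0.151, with the block 0.0387). A dimmer Csf1r probe differed by 0.44 (adjusted p = 0.267), and another was not tested. The tested genes did not all lie in that direction: Aif1 had a log2 difference of -1.28 (adjusted p = 0.276; with the experiment as a block 0.0421) and Lyz2 one of -0.18. The largest part of the summed signal came from the brightest Itgam probe (log2 difference 1.26, adjusted p = 0.0881, with the block 0.0397). A dimmer Itgam probe differed by -0.03, and another was not tested. The pan-leukocyte marker Ptprc and the myeloid markers Fcgr1, Mrc1, Tyrobp and Cx3cr1 were not well above background on any array. The part of these genes in the Mmp differences was not tested.

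Outside the cluster, Mmp23 was lower at the fold limit. It is an atypical MMP that is anchored in the membrane before it is cut free, and its probe (chr4:155025377-155025436, minus strand) read 140.1, 642 and 371 under GapmeR Ntep and 1322, 2072 and 1907 under GapmeR control. Every GapmeR Ntep array was below every control array, and the difference was present within each experiment (-3.24, -1.69 and -2.36). It passed the fold limit with a log2 difference of -2.43 (SE 0.56) but not the adjusted p (0.0637). With the experiment as a block the adjusted p was 0.0346, and without experiment 1 the log2 difference was -2.03 (adjusted p = 0.0600).

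The membrane-type enzyme Mmp14, which activates the Mmp2 precursor on the cell surface, showed no such pattern: it read 594, 1178 and 989 against 486, 1109 and 1004, with overlapping groups and a log2 difference of 0.12 (95% confidence interval -0.89 to 1.13). Mmp15, another membrane-type enzyme, read 20, 31.6 and 20 against 23.1, 86.0 and 101 (log2 difference -1.33, adjusted p = 0.231). Mmp17 and Mmp24, the other membrane-type members with a test, differed by 0.14 and 0.29 and did not pass. Stromelysin-3 (Mmp11) was measured by 2 probes with differences of -0.05 and 0.13, and its brighter probe read 2823, 5677 and 4947 against 3406, 5172 and 4983.

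Neither gelatinase could be tested. Mmp2 read 30.1, 20 and 20 against 74.98, 20 and 20, so that only the control array of experiment 1 gave a signal well above background. Mmp9 read 20, 20 and 20.8 under GapmeR Ntep and 65.6, 36.2 and 46.8 under GapmeR control. Its control mean of 49.6 placed it just under the limit of 50, next to Adam39 (46.5) and the second Adamtsl1 probe (46.0). The members just inside the limit were Timp4 (53.6), Mmp27 (54.3) and the dimmer Adamts14 probe (55.5).

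Of the 14 tested probes of ADAMTS enzymes, 2 were lower at the adjusted p, 3 were lower at the fold limit and none was higher by either rule. Over all tested probes of the array, 3.21% were lower at the adjusted p and 5.06% at the fold limit. The limit for testing was reached by 4 of the 14 only through the control group and by 1 only through GapmeR Ntep. Fibroblast markers were measured beside these enzymes and the ADAMTS-like proteins. Their 11 tested genes had a median log2 difference of -0.71 and a summed signal of 555876 to 737725 under GapmeR Ntep against 808933 to 892310 under GapmeR control. None passed the adjusted p, and 1, Postn, passed the fold limit (-1.27, adjusted p = 0.0544). The part of these genes in the Adamts and Adamtsl differences was not tested.

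Adamts4, an aggrecanase that cuts aggrecan and versican (chr1:173189952-173190011, plus strand), read 2731, 4482 and 2837 against 16733, 10774 and 9732. The highest GapmeR Ntep array stayed well below the lowest control array. Its log2 difference was -1.89 (SE 0.31, adjusted p = 0.0335), and without experiment 1 it was -1.52 (adjusted p = 0.0690).

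Adamts1, which also cuts versican, went the other way, with 18411, 19551 and 25958 against 16905, 10109 and 10719.7. The groups did not overlap, yet experiment 1 differed by only 0.12 on the log2 scale against 0.95 and 1.28 in the other experiments. The estimate of 0.78 (SE 0.27) did not pass (adjusted p = 0.143). Adamts8, a close relative with weak aggrecanase activity, was measured by 2 probes. The probe at chr9:30770384-30770443 read 20, 51.9 and 20.5 against 93.4, 202 and 161, a log2 difference of -2.39 (SE 0.48, adjusted p = 0.0476), with 1 GapmeR Ntep array well above background. Its adjusted p rose to 0.0550 on arrays scaled to their 75th percentile and to 0.0567 on a floor of 5, and normexp background correction gave -0.72 (adjusted p = 0.0821). Without experiment 1 the difference was -2.47 (adjusted p = 0.0785). The other, 19334 bases away, read 63.9, 55.4 and 63.1 against 46.7, 38.8 and 45.5 (0.48, adjusted p = 0.151), so the 2 probes of Adamts8 went in opposite directions. Adamts15 read 20, 20 and 20.5 against 20, 92.8 and 58.4, and neither Adamts5 nor Adamts9 reached the limit for testing.

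Adamts7, which cuts cartilage oligomeric matrix protein (chr9:90094878-90094937, plus strand), read 77.7, 190.1 and 141 against 259.5, 797 and 701. It was lower in each experiment, with log2 differences of -1.74, -2.07 and -2.31, and the groups did not overlap. The mean difference of -2.04 (SE 0.54) passed the fold limit but not the adjusted p (0.0815; with the experiment as a block 0.0310). Without experiment 1 it was -2.19 (adjusted p = 0.0482). Its relative Adamts12 was not above the limit.

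Of the procollagen N-proteinases, which trim fibrillar collagen precursors, Adamts2 read 558, 459.7 and 226 against 1467, 819 and 577. No GapmeR Ntep array reached the lowest control array. The log2 difference was -1.19 (SE 0.48, adjusted p = 0.189; with the experiment as a block 0.0373). The brighter Adamts14 probe read 1759.5, 6625 and 5135 against 9051, 12861 and 11540.3 (log2 difference -1.50, adjusted p = 0.142). The dimmer Adamts14 probe stayed between 46.9 and 64.3 on all arrays, and Adamts3 lay at the floor.

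Among the remaining tested enzymes, Adamts17 gave the widest spread: its brighter probe read 20, 336 and 172 against 129, 935 and 966. Experiment 1 was low under both GapmeRs, and the log2 difference of -2.22 had an SE of 1.27 (adjusted p = 0.333; with the experiment as a block 0.0337). Adamts6 read 20, 32.7 and 60.1 against 127, 78.7 and 88.6 (log2 difference -1.50, adjusted p = 0.1001). Adamts10 and Adamts16 differed by -0.78 and -0.62 with overlapping groups.

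The ADAMTS-like proteins, several of which bind to fibrillin microfibrils, were tested by 4 probes, of which 3 were lower. Adamtsl4, a microfibril-associated protein (chr3:95480135-95480194, minus strand), read 287, 756 and 488 under GapmeR Ntep and 2558, 2191 and 2494 under GapmeR control. The control arrays lay close together and all GapmeR Ntep arrays were far below them. The log2 difference was -2.35 (SE 0.36, adjusted p = 0.0312), and without experiment 1 it was -1.94 (adjusted p = 0.0563). Adamtsl1 read 44.9, 40.1 and 25.0 against 90.5, 113 and 44.6 (log2 difference -1.11, adjusted p = 0.168; with the experiment as a block 0.0418).

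Adamtsl5 gave opposite answers by its 2 probes, whose first 30 of 60 bases are shown, as the file gives them and with none in capitals, because each names a different transcript variant in the array's annotation.
Adamtsl5 variant 2 probe, chr10:79805527-79805586: aagtttggctcctgggagccaaggctcttg
Adamtsl5 variant 1 probe, chr10:79804077-79804136: ttgctcatctacaaaagccgcacgcctctg

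The variant 2 probe read 1539, 2023 and 1724 under GapmeR Ntep and 632, 388 and 396 under GapmeR control. All its GapmeR Ntep signals were above all its control signals, with a log2 difference of 1.93 (SE 0.25, adjusted p = 0.0260; 2.25 without experiment 1, adjusted p = 0.0461). The variant 1 probe, 1450 bases away on the same strand, read 80.6, 148 and 118 against 245, 424 and 277, a log2 difference of -1.45 (SE 0.32, adjusted p = 0.0571; with the experiment as a block 0.0310). Without experiment 1 it was -1.37 (adjusted p = 0.0781). Both probes were well above background on all 6 arrays and kept their direction in each experiment. No single direction can therefore be given for the gene.

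**Figure D4:**
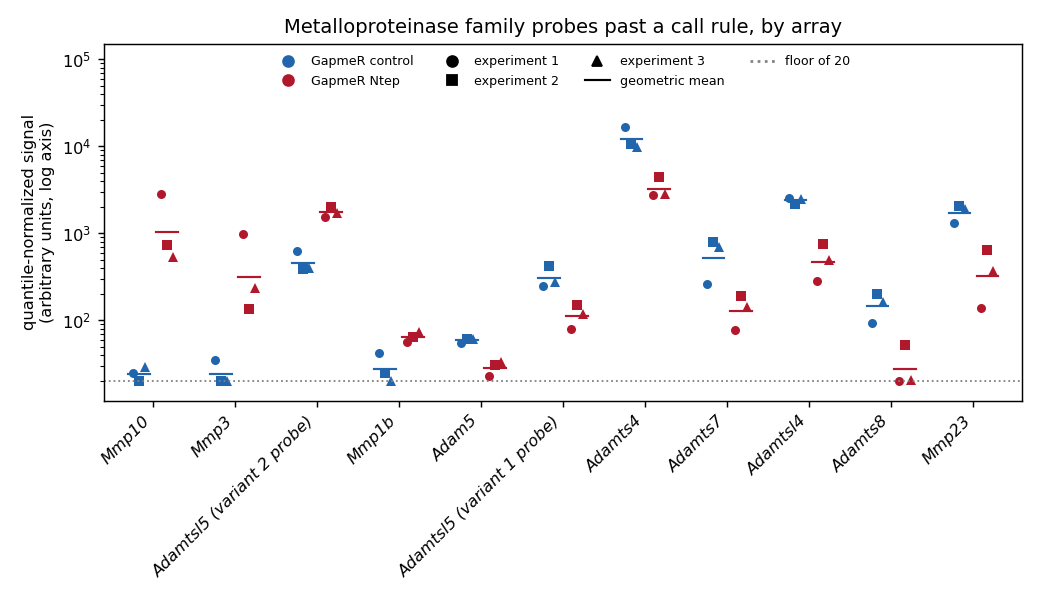
Quantile-normalized signal (log axis, floor of 20 dotted) of the 11 probes that passed a call rule, ordered from the highest to the lowest log2 difference. Each point is 1 array (blue GapmeR control, red GapmeR Ntep, symbols for the 3 experiments) and lines are geometric means; the groups do not overlap for any of them, from Mmp10 (5.43) to Mmp23 (-2.43).

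Among the ADAMs, the widely expressed sheddases differed little. Adam10, which cuts Notch and cadherins, read 35452, 38326 and 35328 against 41172, 35302 and 34779, with a log2 difference of -0.02 (95% confidence interval -0.42 to 0.37). Adam17, which releases tumour necrosis factor and ligands of the epidermal growth factor receptor, read 1242, 1464 and 1450.4 against 1787, 1492 and 1484 at its brighter probe (-0.20, 95% confidence interval -0.62 to 0.23), and its second probe gave -0.21. Neither interval reaches a 2-fold change.

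Adam9 read 47787, 69056 and 65459 against 75417, 68731 and 65105, so that only experiment 1 departed from 0. Adam15 read 38000.4, 53883 and 44735 against 55767, 62112 and 59002; its groups did not overlap, and its log2 difference of -0.39 did not pass (adjusted p = 0.269). Adam8, a sheddase of leukocytes and inflamed tissue, read 25672, 21518 and 23372 against 26849.5, 14715 and 12992 (log2 difference 0.44, adjusted p = 0.414). Adam33, linked to airway remodelling, was lower by both its probes without passing (-1.49 and -0.86, adjusted p = 0.180 and 0.0997).

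Adam12 had 3 probes, of which 2 were tested. One differed by 0.54, and the other read 20 on 5 arrays and 520.4 on the control array of experiment 2, where the scanner software had marked the spot as an outlier. The only ADAM past a call rule was Adam5, a gene of the testis, with 22.7, 31.1 and 33.6 against 55.5, 60.3 and 60.5 (chr8:25843457-25843516, minus strand). The groups did not overlap, but no GapmeR Ntep array had it well above background, so the decrease is bounded at 1.18-fold or more. The fitted log2 difference was -1.03 (SE 0.20, adjusted p = 0.0467; 0.0871 with 75th percentile scaling and 0.320 after normexp background correction). Without experiment 1 it was -0.90 (adjusted p = 0.0596). A second Adam5 probe was too dim to test and did not show the decrease. It read 35.7, 36.3 and 31.3 against 29.0, 49.4 and 34.2, with overlapping groups.

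Germ cell markers were measured beside it: 4 of 7 listed genes were tested, and 3 (Ddx4, Dazl and Acrv1) were not well above background on any array. Their summed signal was 392 to 663 under GapmeR Ntep and 1771 to 3752 under GapmeR control, mostly from Prm1 (log2 difference -3.26, adjusted p = 0.0260). The other tested genes did not pass. Tnp1 differed by 0.19 (adjusted p = 0.725) and Prm2 by -0.49 (adjusted p = 0.598). Sycp3 differed by -0.57 at its brighter probe (adjusted p = 0.557) and by -1.23 at its dimmer probe (adjusted p = 0.418). The part of these genes in the Adam5 difference was not tested. Of the 32 Adam genes, 19 had no tested probe, among them the sperm genes Adam2, Adam3 and Adam18.

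None of the 4 TIMPs passed a call rule in limma, and none had an unadjusted p under 0.05. Timp1, a secreted inhibitor of most MMPs, read 46434, 36687 and 34532 against 76693, 40648 and 37852. Most of its difference came from the control array of experiment 1, and the log2 estimate was -0.33 (95% confidence interval -1.11 to 0.44, adjusted p = 0.540). Timp2, which also takes part in activating the Mmp2 precursor, read 15791, 13084 and 11738 against 18297, 11089.6 and 12017 at its brighter probe (-0.00, with -0.24 at the second).

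Timp3, the matrix-bound inhibitor that also blocks Adam17, read 2642, 2076 and 1548 against 2837, 1299.9 and 1258 (0.29, 95% confidence interval -0.66 to 1.24). Timp4 was near the limit of measurement, at 46.0, 52.7 and 34.2 against 75.4, 47.0 and 38.5 (-0.24). The groups overlapped for all 5 TIMP probes. The intervals of Timp1 and Timp3 reach beyond a 2-fold change, so these data do not bound the change below 2-fold.

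**Figure D5:**
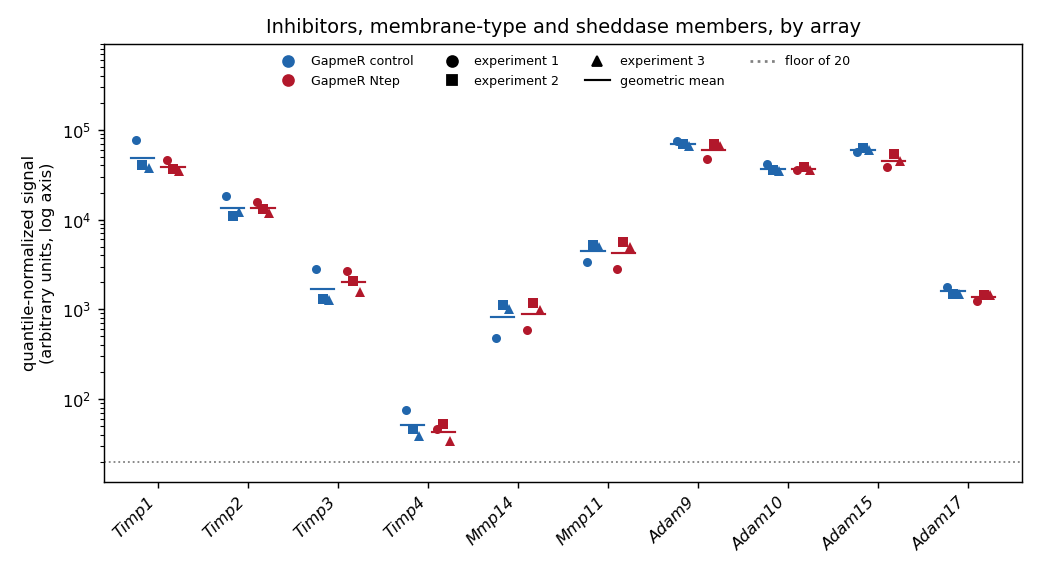
Quantile-normalized signal (log axis, floor of 20 dotted) of the 4 TIMPs, of Mmp14 and Mmp11 and of 4 sheddases, 1 probe per gene. Each point is 1 array (blue GapmeR control, red GapmeR Ntep, symbols for the 3 experiments) and lines are geometric means; the groups overlap for every gene but Adam15 and the Adam17 probe shown, whose log2 differences were -0.39 and -0.20.

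Agreement between probes and experiments varied. Of the 52 tested probes, 15 did not keep 1 direction across the 3 experiments. There were 10 genes with more than 1 tested probe. In 4 the probes had the same sign and in 6 (Adam11, Adam12, Adamts14, Adamts8, Adamtsl5 and Mmp11) opposite signs. Both probes passed a call rule only in Adamtsl5. Some of these signs rest on small values, as for Mmp11 (-0.05 and 0.13) and the dimmer Adamts14 probe (0.01). The negative Adam12 value rests on 1 spot marked as an outlier. All 7 calls at the adjusted p were lost without GapmeR control replicate 2 (0.125 for Mmp10 to 0.182 for Adam5), without control replicate 3 and without GapmeR Ntep replicate 3, settings in which at most 5 probes of the whole array were called. The exact permutation test gave p = 0.1 for each of the 11 probes past a call rule, the smallest value that 3 against 3 arrays allow. With the experiment as a block, 3 members were higher and 10 lower at the adjusted p. Calls rose over the whole array too, from 1642 of 30990 tested probes without the block to 4292 with it. The members added by the block, all lower, were Mmp23, Adamts2, Adamts7, Adamts17, Adamtsl1 and the variant 1 probe of Adamtsl5.

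Genes that activate, anchor, inhibit or clear these proteases, or serve as their substrates, were described from a list of 47 genes. Of these, 34 were tested, each represented by its brightest probe, and 1 was higher and 1 lower at the adjusted p. These counts are near the array-wide shares of 2.09% higher and 3.21% lower. Plau, the urokinase that generates plasmin and so starts the activation of MMP precursors, rose from 60.6, 49.7 and 42.5 to 447, 156 and 232 (log2 difference 2.33, SE 0.41, adjusted p = 0.0363). Fbn1, the microfibril protein fibrillin-1, read 2290.0, 2380.0 and 2702 under GapmeR Ntep and 4989.8, 4329 and 4209 under GapmeR control (log2 difference -0.88, SE 0.17, adjusted p = 0.0439).

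The endocytic receptor Lrp1, which clears MMP and TIMP complexes, again gave opposite probes. The brighter read 611, 1072 and 688 against 1663, 1831 and 1849 (-1.21, adjusted p = 0.0509; with the experiment as a block 0.0408), and the dimmer 1739, 988 and 1184 against 161, 65.9 and 67.6 (3.82, adjusted p = 0.0224). Versican (Vcan), a substrate of Adamts1 and Adamts4, had a log2 difference of -1.09 at its brighter probe and did not pass (adjusted p = 0.163; with the experiment as a block 0.0344). The membrane-anchored MMP inhibitor Reck differed by -1.32 (adjusted p = 0.154, with the experiment as a block 0.0483). Tspan17 was also lower, by -1.84 at its brighter probe (adjusted p = 0.276, with the block 0.0353). Other list genes were higher and passed only with the block. These were Mep1a (log2 difference 4.51, block adjusted p = 0.0310), Serpinb2 (2.77, 0.0426), Serpinf2 (1.48, 0.0443), Cd44 at its brightest probe (1.37, 0.0356) and Astl (0.82, 0.0474).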

How the data were processed

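Expression was measured on 6 single-color Agilent mouse arrays, 1 per culture, which shared 1 slide. Per the file headers, the deposited intensity is the processed signal of Agilent Feature Extraction 10.7.3.1, after background subtraction by the authors. Following the study's settings, spots of a probe were averaged, signals quantile normalized, values under 20 set to 20 and log2 taken. The authors' value table of intensity gave nearly the same values. Probes averaging 50 or more under either GapmeR were fitted with limma 3.58.1 (R 4.3.3), unpaired and two-sided, over the whole array; 3 arrays per GapmeR limit the precision. The fit was tested on simulated data. Fold changes of dim probes are understated by the floor. Same-numbered arrays come from the same experiment per the study's documentation, and their residuals correlated at 0.466, 0.300 and 0.254 (other pairs -0.327 to 0.126). For a probe not well above background in a group, a bound was computed against the lowest signal of probes well above background on each array. Named were all members past a call rule, the TIMPs, Mmp2, Mmp3, Mmp9, Mmp10, Mmp13, Mmp14, Adam10, Adam17, the 3 brightest genes of each subfamily on the control arrays, those next to the limit of 50 and list genes past the adjusted p; further members were named after their values were seen. Members and lists were chosen with earlier results of these data known. All 83 symbols were found in the RefSeq table; probe positions are the array's own mm9 positions, promoters are from RefSeq GRCm38.p6, and protein sequences and exon positions were not analysed here. Endothelial, epithelial and neutrophil markers were also read: 2 of 6, 6 of 6 and 2 of 6 genes on the array were tested, and none passed either rule.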

Additional observations from a re-analysis of the deposited data

How the results depend on the processing

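In the main setting, 1642 of 30990 tested probes of the whole array were called at the adjusted p. This count was 564 of 55681 without the filter on low values and 285 with the methods' t-test. It was 10260 with array weights and 4292 with the replicate block. Among the members, the 3 higher and 4 lower calls became 0 and 0 without that filter or with the t-test. They became 9 and 17 with array weights, and 3 and 10 with the replicate block. Only probes well above background left 1 higher call, and 75th percentile scaling 2 lower ones. Leaving out both arrays of experiment 1, chosen after seeing the data, left 1 lower call, none of the 4 in the full set. Leaving out 1 array gave 0 to 3 higher and 0 to 4 lower calls. At the fold limit (4 higher, 7 lower), normexp gave 2 and 4, the methods' t-test 2 and 3, only bright probes 1 higher, array weights 11 lower, and leaving out 1 array 3 to 5 higher and 4 to 8 lower. The median of -0.28 became -0.15 with 75th percentile scaling, -0.45 with array weights and 0 without the filter, where 31 of the 67 added probes lie at the floor on every array; it ran from -0.38 to -0.14 with 1 array left out. Without the filter the Adamts median of -1.31 became -0.0031. Small differences changed sign: with 75th percentile scaling Adam10 (0.140), Timp2 (0.0918), Timp4 (0.0741) and Adam9 (0.0114); with array weights Adam10 (0.0150), Mmp14 (-0.0348) and Timp2 (0.0311); without outlier spots Timp2 (0.00115); without experiment 1 Adam10 (0.0706), Timp2 (0.102), Adam9 (0.00731) and Mmp11 (0.0619). With 1 array left out, Adam10 ran from -0.0690 to 0.0527, Mmp14 from -0.254 to 0.406, Timp2 from -0.142 to 0.219 and Mmp11 from -0.250 to 0.254. Fewer arrays or probes, or more of them, enter several of these settings; for the other changes the cause was not tested. Of the 415 comparisons of named probes, 320 kept direction and side of the threshold, 56 lost and 18 gained a call, and 21 changed sign.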
